A study of Schizosaccharomyces pombe with 144 samples.

Results

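The genes described here are the subtelomeric gene clusters of fission yeast, Schizosaccharomyces pombe, which lie next to the telomeres at the 4 ends of chromosomes I and II. They were chosen by name alone, with no measured value: every gene of the table listed under a systematic name with the prefix SPAC212, SPAC977, SPAC186, SPAC750, SPBC1348, SPBPB2B2 or SPBCPT2R1, plus tlh1 and tlh2. This gave 76 of the 5157 genes in the table. The left end of chromosome I holds the SPAC212 cluster of 12 members, tlh1 included, and the SPAC977 cluster of 15. The right end of chromosome I holds SPAC186 with 7 members and SPAC750 with 8. On chromosome II, SPBC1348 with 13 members lies at the left end, and SPBPB2B2 with 12 and SPBCPT2R1 with 9, tlh2 included, lie at the right end. The annotation calls 66 of the members protein coding and 10 pseudogenes. Another 10 genes of the same clusters are listed under a symbol, such as dak2 and ght7, and so fall outside the rule.

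Subtelomeres are the stretches between a telomere and the unique part of a chromosome arm. In S. pombe they are packed in heterochromatin marked by methylation of histone H3 on lysine 9, which the methyltransferase Clr4 writes and the chromodomain protein Swi6 binds, and genes placed there are known to be poorly transcribed in growing cells. Subtelomeres of different chromosome ends exchange sequence, so many of their genes exist as near-identical copies; tlh1 and tlh2, which encode RecQ-type DNA helicases, are the copies closest to the telomeres.

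The study followed gametogenesis, the meiosis and spore formation of yeast, and its total RNA libraries tested whether the meiotic cultures ran in synchrony. Members were read in 10 such libraries, taken every 1 h from 0 h to 8 h of meiosis and from asynchronous growing cells, called mitosis here, with 1 library per stage. All 10 came from the same diploid strain, SPB2819, with both mating-type alleles h-, ade6-M210 over ade6-M216, both pat1 copies replaced (pat1::NatR), and pat1-as(L95A)::HygR on both homologues. This analog-sensitive pat1 allele makes Pat1, the kinase that holds back meiosis, open to a chemical inhibitor. The strain also carried cen2(D107)::KanR-ura4+-lacO and his7+::lacI-GFP, a fluorescent tag beside a centromere, and lys1::MatPc-Bleo, and its clr4 was wild type. Growing cells therefore carried every one of these alleles too, and the course models meiosis through the loss of Pat1 activity in 1 strain, without mating. Cells had been cultured in YES, a rich medium.

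The libraries were deposited as RPKM, read numbers corrected for gene length and library depth, scaled to an estimated 14985853 reads at 6 h up to 20828175 reads in mitosis. For a gene of median length, 1678 exonic bases, 5 RPKM stands for 126 reads at 6 h, and counting error alone gives these an exact Poisson 95% interval of 105 to 150 reads. Since each stage is 1 library, a difference between stages has no replicate check, and no test or p-value is given: a gene counts as higher or lower only by size, where log2(RPKM + 1) changed by 2 or more (4-fold) and either library had at least 5 RPKM. This is what a call means below. Each count is also given after rescaling every library by its median ratio over all genes, which brought the all-gene medians from between -0.69 and 0.52 to between 0.00 and 0.04 for the comparisons below. Among the stage markers, isp3, a spore wall protein gene, read 91.2 RPKM in mitosis, 6765.7 at 0 h and 134839.9 at 8 h. The meiotic cohesin gene rec8 read 2.67 RPKM in mitosis and 221.8 at 0 h. Not every marker was highest at the stage it stands for. The premeiotic S phase genes cdc18 and cdc22 were highest at 0 h, with 291.6 and 1861.2 RPKM, against 63.3 and 323.2 at 1 h. The sporulation gene meu14 was highest at 6 h, with 2225.3 RPKM against 763.2 at 8 h. The 0 h library, the reference below, thus already held RNA of S phase and sporulation genes.

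One family of copies held 10 of the 11 members that were higher at 8 h than at 0 h, and its promoters are shown for that reason. The family has 10 members on all 4 ends, encodes proteins of no known function, and was joined by protein identity of 40% or more over at least 60% of the shorter protein. The sequences below run 5′ to 3′ from 250 bases before to 50 bases after the annotated gene start in the RefSeq assembly ASM294v3, for SPAC212.01c, a copy whose sequence is not unique anywhere in its exons, and for SPAC212.04c and SPBPB2B2.07c, the copies with the most sequence of their own. SPAC212.01c and SPAC212.04c are on the plus strand of chromosome I and SPBPB2B2.07c is on the minus strand of chromosome II. Capitals mark the longest run shared by the windows shown, 25 bases that begin 7 bases before the gene start.
SPAC212.01c: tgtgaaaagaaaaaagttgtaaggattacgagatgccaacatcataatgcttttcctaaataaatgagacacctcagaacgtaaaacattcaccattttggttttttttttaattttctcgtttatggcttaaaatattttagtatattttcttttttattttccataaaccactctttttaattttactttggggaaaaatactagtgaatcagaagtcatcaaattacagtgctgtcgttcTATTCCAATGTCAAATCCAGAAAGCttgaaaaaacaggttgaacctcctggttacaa
SPAC212.04c: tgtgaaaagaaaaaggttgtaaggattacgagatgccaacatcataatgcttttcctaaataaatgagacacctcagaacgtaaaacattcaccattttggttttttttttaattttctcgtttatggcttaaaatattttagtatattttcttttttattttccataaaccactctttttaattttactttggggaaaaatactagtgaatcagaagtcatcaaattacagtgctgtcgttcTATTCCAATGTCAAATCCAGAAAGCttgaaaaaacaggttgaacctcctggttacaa
SPBPB2B2.07c: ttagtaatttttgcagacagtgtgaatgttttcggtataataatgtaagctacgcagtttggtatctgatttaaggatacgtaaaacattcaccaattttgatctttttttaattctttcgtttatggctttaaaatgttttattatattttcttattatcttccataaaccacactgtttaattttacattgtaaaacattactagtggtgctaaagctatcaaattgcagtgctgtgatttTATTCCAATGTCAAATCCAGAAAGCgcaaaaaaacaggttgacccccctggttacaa
The run in capitals was present in the windows of 10 of the 10 family members and of 10 of 5122 genes in all, on either strand, so it occurred in no other window searched. It was picked from family windows and mostly lies past the gene start, in a family joined by protein identity. That relatives hold it and other genes do not was therefore largely set in advance, and any role in the late rise was not tested. The window of SPAC212.01c matched that of SPAC212.04c at 99.7% of positions, whereas SPBPB2B2.07c matched them at 66.0% and 65.7%, counted without gaps. No coordinates are given, because the submitters' processing notes name another build, ASM294v2.

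Far more subtelomeric genes than genes in general were at or near 0 in every library. Of the 76 members, 25 (32.9%) never reached 1 RPKM, against 66 of all 5157 genes (1.28%), and 37 (48.7%) never reached 5 RPKM, against 139 of all genes (2.7%). The remaining 39 members reached 5 RPKM in at least 1 library, and 9 reached 100 RPKM. The median level of the members ran between 0.184 RPKM in the 6 h library and 0.948 RPKM in the 1 h library, where the median of all genes ran between 28.3 RPKM in the 7 h library and 48.9 RPKM in the 0 h library. In bulk RNA, fewer cells with a transcript and less transcript per cell cannot be told apart. Just above the 5 RPKM line lay SPAC750.07c with a highest level of 5.45, SPAC212.08c with 5.58 and SPAC750.02c with 5.72 RPKM, and just below it SPBC1348.02 with 4.47, SPAC750.05c with 3.77 and SPAC977.01 with 3.55 RPKM.

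The helicase genes at the outermost position were low throughout. Listed values of tlh1 were 0.256 RPKM in mitosis, 0.429 at 0 h and then 0.236, 0.209, 0.0877, 0.162, 0.0961, 0.106, 0.128 and 0.269 from 1 h to 8 h. Those of tlh2 were 0.417 RPKM in mitosis, 0.396 at 0 h and then 0.231, 0.248, 0.165, 0.242, 0.136, 0.122, 0.129 and 0.289 from 1 h to 8 h. Both stayed at or under 0.429 RPKM in all 10 libraries, and neither was called at any stage. Their proteins are identical over 1887 residues, and 0.9% of 50-base exon windows of tlh1 and 6.8% of tlh2 occur once in the genome, so the table cannot say which copy was read. SPAC212.06c, a short helicase-like relative, ranged between 0.15 RPKM at 6 h and 1.04 at 0 h and 8 h.

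The 25 members under 1 RPKM included whole families. None of the 3 methyltransferase copies (SPAC977.03, SPAC750.03c, SPBC1348.04) exceeded 0.489 RPKM, and all 3 had their highest level at 1 h, between 0.367 and 0.489 RPKM. The 3 Vel1p domain copies (SPAC977.05c, SPBC1348.06c, SPBPB2B2.15) peaked at 0.709 RPKM, and the 3 small uncharacterized genes SPAC212.03, SPBC1348.15 and SPBCPT2R1.03 at 0.583 RPKM. Among the 4 copies of a transmembrane protein gene, SPAC977.02 alone reached 1 RPKM, with 1.31 at 1 h. Pseudogenes were on both sides of the line, with 6 of 10 never reaching 5 RPKM and 4 that did. Read numbers could be recovered for 25 members, those whose annotated length gave whole reads to within 0.1 read. Another 3, SPAC186.07c, a hydroxyacid dehydrogenase gene of entirely unique sequence, and the pseudogenes SPAC212.05c and SPBCPT2R1.10 were at 0 in all 10 libraries, and 0 reads in 1 library allow up to 3.69 by the exact Poisson 95% interval.

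**Figure D1:**
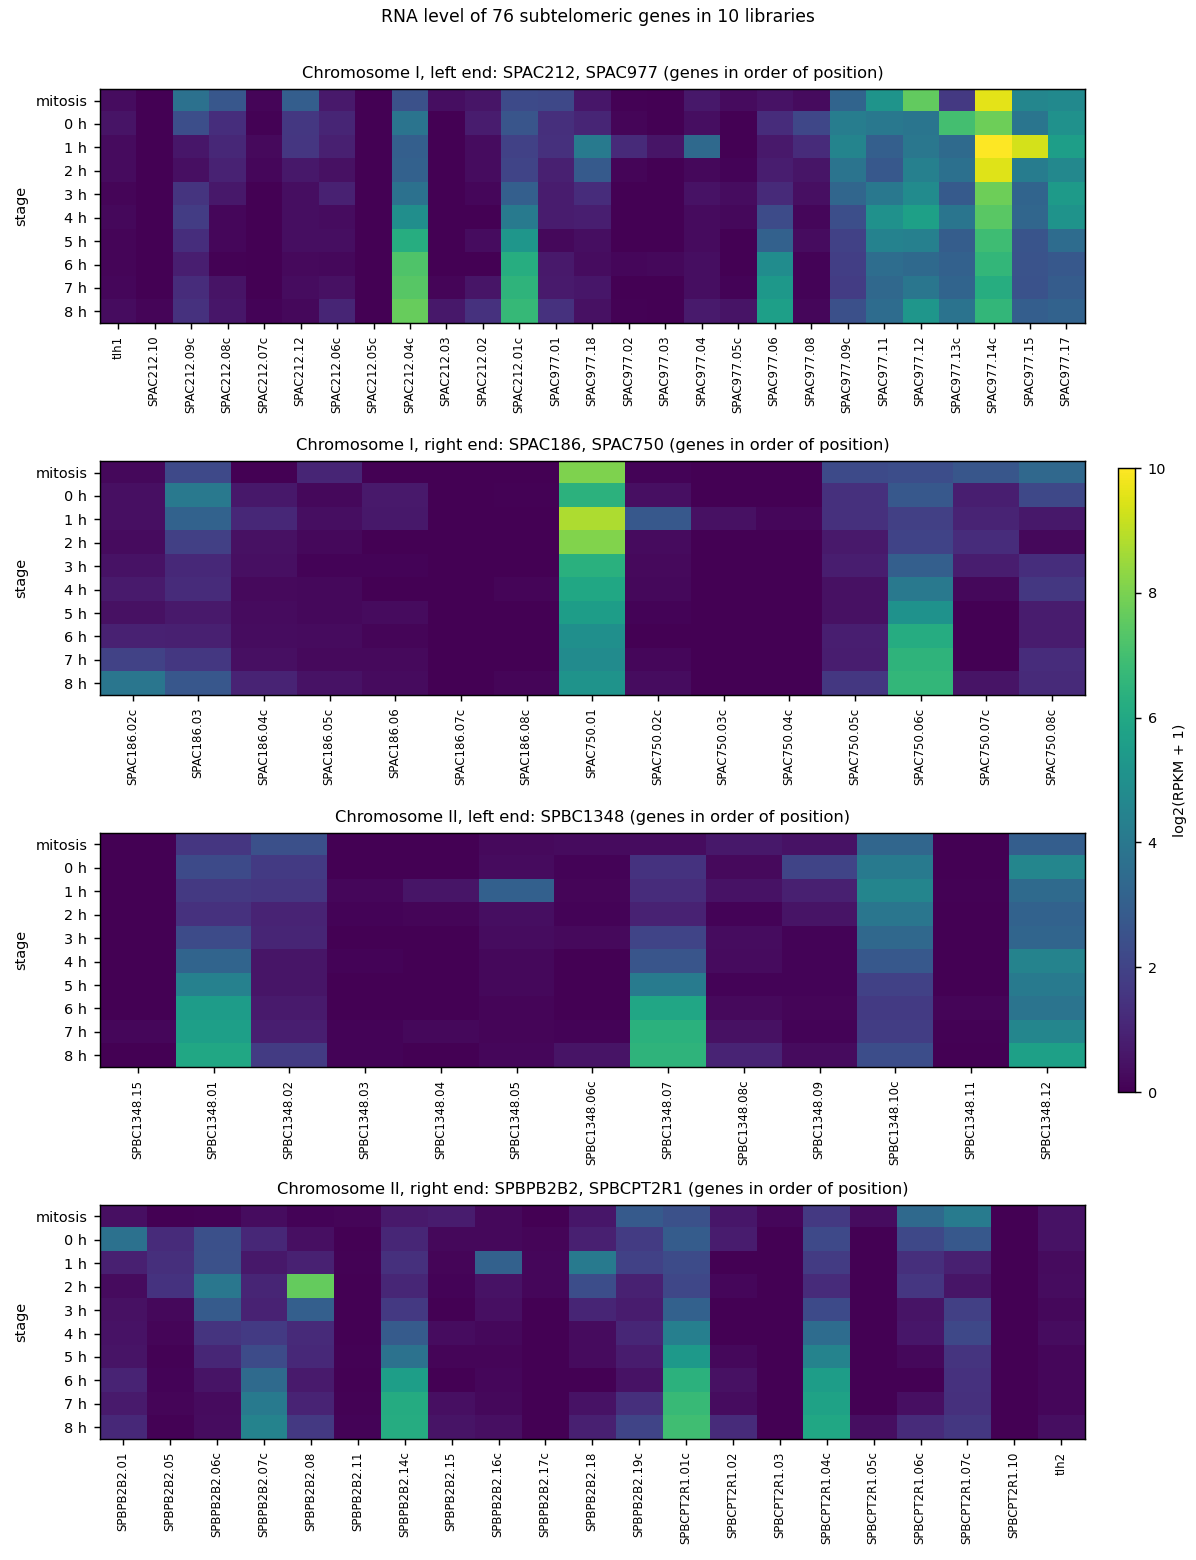
Level of each of the 76 members as log2(RPKM + 1), colour scale from 0 to 10, with the 10 stages down each panel, mitosis on top, and genes along it in order of position, 1 panel for each chromosome end. Columns dark throughout include the members that never reached 1 RPKM (25 of 76). Other members that never reached 5 RPKM (37 of 76 in all) are nearly as dark on this scale. The columns that brighten step by step toward 8 h are mostly those of the 10-gene family, present on all 4 ends.

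Copies limit which gene a value belongs to. Exons were split into 50-base windows and each window was searched in the genome: 25 members had no window found once, 17 had every window unique, and 57 had under 50% unique. Of the 25 members with no unique window, 24 still had a value above 0 in at least 1 library, and the same number of members had no unique window at 100 bases. How reads that map to several places were counted is not given in the sources used here, so values of copies are best read as values of the family. Low levels were not a feature of copies alone: 6 of 19 members with 50% or more of their windows unique never reached 1 RPKM (31.6%), and 19 of 57 with under 50% did not (33.3%).

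**Figure D2:**
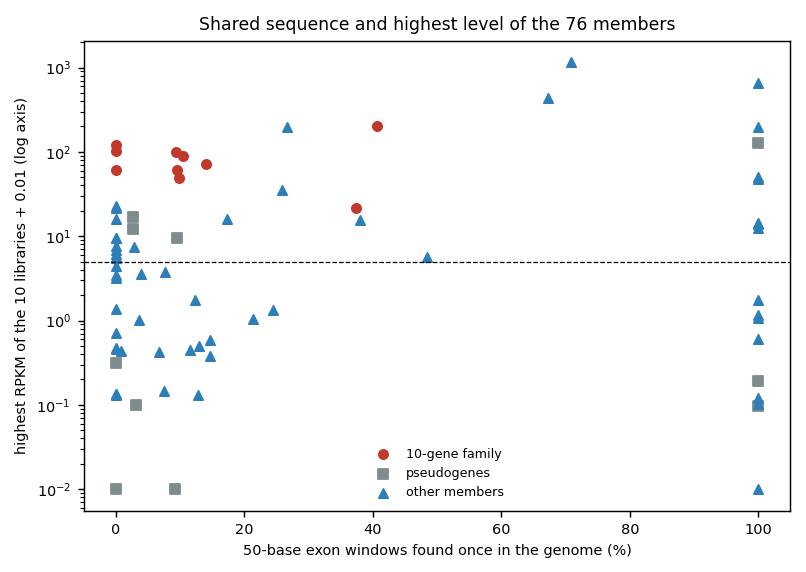
Highest RPKM of each of the 76 members over the 10 libraries, on a log axis after adding 0.01, against the percentage of its 50-base exon windows found once in the genome, with the line at 5 RPKM. The 10-gene family (red circles) lies above the line at 0% to 40.7% unique, while silent and active members occur at both 0% and 100% unique.

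Late in the course, the 10-gene family rose, read as a family since most of its copies cannot be told apart. At 6 h, 10 of the 76 members were called higher than at 0 h (13.2%), where 4.03% of all genes were, and those 10 were the 10 family members. After rescaling it was again 10 of 76, where 7.00% of all genes were. The summed level of the family was 619.7 RPKM at 6 h and 878.7 RPKM in the 8 h library, against 43.8 RPKM in that of 0 h. The median change of the family was 3.48 on the log2 scale at 6 h and 3.95 at 8 h, or 4.17 and 4.45 after rescaling, and 10 of 10 were called in both scalings. The median over all members was -0.18 at 6 h and 0.00 at 8 h, and over all genes -0.69 and -0.47.

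SPAC212.04c was the highest of the family, with 4.51 RPKM in mitosis, 13.3 at 0 h and then 7.09, 7.72, 12.1, 29.9, 73.3, 151.9, 168.6 and 204.4 from 1 h to 8 h. It was not called at 1 h and 2 h, with changes of -0.82 and -0.72 against 0 h, and from 2 h on its level was higher in each library than in the one before. SPBPB2B2.07c was the lowest, with 0.256 RPKM in mitosis, 1.16 at 0 h and then 0.569, 1.03, 0.952, 2.29, 3.9, 9.92, 16.1 and 21.4 from 1 h to 8 h. For that gene whole reads were recovered, 297 at 8 h (264.2 to 332.8, exact Poisson 95%) against 18 at 0 h (10.7 to 28.4), and these intervals of counting error do not overlap. These genes have 40.7% and 37.4% of their windows unique, the most in the family.

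SPBC1348.07 and SPBPB2B2.14c, whose proteins are 98.3% identical, had the largest changes at 8 h, 5.04 and 5.10 on the log2 scale. SPBC1348.07 read 0.249 RPKM in mitosis, 1.76 at 0 h and then 1.43, 0.931, 3.13, 5.14, 16.9, 60.2, 82.5 and 90 from 1 h to 8 h. SPBPB2B2.14c read 0.591 RPKM in mitosis, 1.12 at 0 h and then 1.6, 1.12, 2.18, 6.3, 12.6, 48.0, 69.6 and 71.7 from 1 h to 8 h. Neither exceeded 1.76 RPKM in mitosis or up to 2 h, and both were at 48.0 RPKM or more from 6 h on. SPAC977.06, their relative on the other chromosome, read 48.5 RPKM at 8 h against 1.44 at 0 h.

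The other 5 copies, SPAC212.01c, SPAC750.06c, SPBC1348.01, SPBCPT2R1.01c and SPBCPT2R1.04c, encode proteins 95.4% to 100% identical, with at most 9.6% unique windows. SPBCPT2R1.01c was the highest of these, with 4.59 RPKM in mitosis, 6.54 at 0 h and then 3.88, 3.36, 7.54, 18.8, 41.2, 83.9, 106.0 and 120.0 from 1 h to 8 h. At 8 h the others read 102.1 RPKM (SPAC212.01c), 98.4 (SPAC750.06c), 61.2 (SPBC1348.01) and 61.0 (SPBCPT2R1.04c), against 5.30, 5.71, 3.77 and 3.62 RPKM at 0 h. As deposited, 10 of 10 family members had their highest level at 8 h. After rescaling, 8 of them were highest at 7 h and 2 at 8 h, so the hour of the maximum rests on the scaling. Since copies share sequence, the 10 genes are not 10 separate measurements. Among the 31 members without near-identical copies, 2 were called higher at 6 h and 3 at 8 h. The 2 at 6 h were SPAC212.04c and SPBPB2B2.07c of the same family, so this count is not free of it. Outside the family, 0 of 66 members were called higher at 6 h, where 4.03% of all genes were. At 8 h, 1 of 66 was (1.52%), where 3.86% of all genes were. Of these 66, 37 never reached 5 RPKM and could not be called as deposited.

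**Figure D3:**
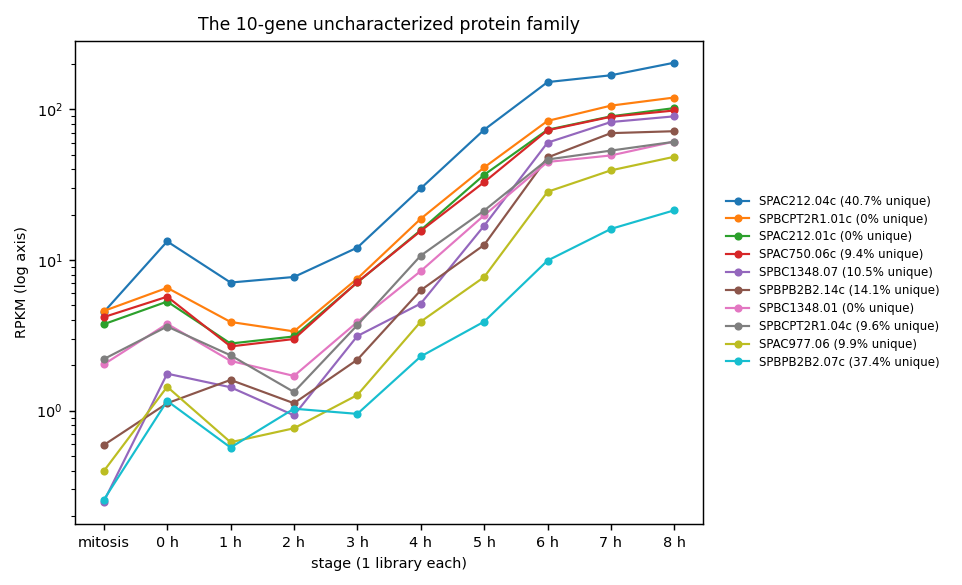
RPKM on a log axis of the 10 members of the uncharacterized family across the 10 libraries, mitosis first and then 0 h to 8 h, with the percentage of unique 50-base windows in the legend. All 10 lines run upward from 3 h, from SPAC212.04c at 204.4 RPKM at 8 h down to SPBPB2B2.07c at 21.4 RPKM.

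At 8 h, 11 of 76 members were called higher than at 0 h (14.5%), where 3.86% of all genes were, and 11 after rescaling, where 5.60% were. The eleventh was SPAC186.02c, which encodes a hydroxyacid dehydrogenase and has unique sequence throughout. It read 0.149 RPKM in mitosis, 0.338 at 0 h and then 0.331, 0.239, 0.384, 0.665, 0.378, 0.876, 2.95 and 14.0 from 1 h to 8 h. Its level stayed under 1 RPKM up to 6 h and was highest in the last library, with a change of 3.49 against 0 h (3.77 rescaled). Its relative SPAC186.07c, 71.7% identical in protein, was at 0 in every library. SPBC1348.12, which encodes a DNA-binding transcription factor, was also highest at 8 h, with 49.8 RPKM against 22.8 at 0 h, a change of 1.09 that was not called.

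Members lower than at 0 h were fewer. At 6 h, 6 of 76 were called lower (7.89%), where 10.3% of all genes were, and after rescaling 3 of 76 were, where 3.03% of all genes were. As deposited, the 37 members that never reached 5 RPKM could not be called, against 139 of all genes. Of those that reached it, 6 of 39 members were lower at 6 h, where 531 of 5018 genes were, a larger share among members. At 8 h, 2 of 76 were called lower (2.63%) in both scalings, where 4.60% of all genes were as deposited and 1.96% after rescaling. The members lower in all of these were SPAC977.13c, a pseudogene, and SPBPB2B2.01, an amino acid permease gene; SPAC186.03, an L-asparaginase gene, was lower at 6 h in both scalings. The phospholipase genes SPAC977.09c and SPBC1348.10c and SPAC977.17, of the MIP family of water and solute channels, were lower at 6 h as deposited, with changes of -2.38, -2.43 and -2.33, and not after rescaling.

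The phospholipase pair shows what identical copies look like in these data. Their proteins are identical over 673 residues and neither has a unique window. SPAC977.09c read 8.39 RPKM in mitosis, 17.8 at 0 h and then 21.7, 13.4, 8.92, 4.33, 2.79, 2.6, 2.47 and 4.44 from 1 h to 8 h. SPBC1348.10c read 8.73 RPKM in mitosis, 16.5 at 0 h and then 22.6, 14.2, 9.36, 5.77, 2.77, 2.23, 2.5 and 4.1 from 1 h to 8 h. Both were highest at 1 h and lowest at 6 h or 7 h.

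**Figure D4:**
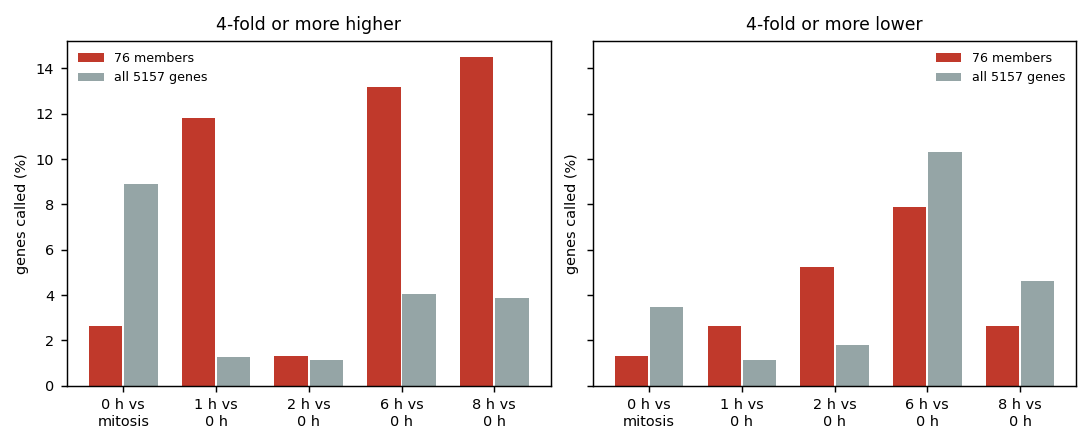
Percentage of genes called 4-fold or more higher (left) or lower (right) in each comparison, as deposited, for the 76 members (red) and all 5157 genes (grey). The members' bars stand above those of all genes for higher calls at 1 h (11.8% against 1.26%), 6 h and 8 h, and below them at 0 h against mitosis. Shares are over all genes of each set, also those that never reached 5 RPKM and could not be called.

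Other members were highest at 1 h. At 1 h, 9 of 76 members were called higher than at 0 h (11.8%), where 1.26% of all genes were, and 8 of 76 after rescaling, where 1.32% were. None of the 9 belonged to the late family. The count was 3 with a pseudocount of 5, 3 with a minimum of 20 RPKM, and 3 among the 31 members without near-identical copies. The largest change was that of SPAC977.15, a gene of the dienelactone hydrolase family with unique sequence. It read 23.2 RPKM in mitosis, 13.9 at 0 h and then 651.8, 17.2, 8.32, 8.89, 5.13, 4.95, 4.66 and 6.87 from 1 h to 8 h. The 1 h library thus stood alone, with a change of 5.45 against 0 h, and at 2 h the gene was 0.29 from its 0 h level.

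The aldo-keto reductase genes SPAC977.14c and SPAC750.01, whose products are oxidoreductases 94.5% identical, had the highest mean level of the members over the 10 libraries. SPAC977.14c read 767.4 RPKM in mitosis, 223.3 at 0 h and then 1160.2, 729.8, 222.5, 175.0, 118.4, 96.5, 73.2 and 98.6 from 1 h to 8 h. SPAC750.01 read 266.0 RPKM in mitosis, 83.9 at 0 h and then 432.5, 278.1, 80.6, 61.8, 45.8, 30.5, 27.1 and 34.1 from 1 h to 8 h. Their courses ran in parallel from opposite ends of chromosome I, high in mitosis, lower at 0 h, highest at 1 h and lowest at 7 h. Their changes at 1 h against 0 h were 2.37 and 2.35, and 70.9% and 67.2% of their windows are unique.

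The 4 transporter copies on all 4 ends exceeded 5 RPKM at 1 h and stayed at or under 0.639 RPKM in every other library. SPBC1348.05 read 0.187 RPKM in mitosis, 0.215 at 0 h and then 7.49, 0.285, 0.244, 0.149, 0.151, 0.111, 0.107 and 0.12 from 1 h to 8 h. SPAC977.04 read 9.59, SPBPB2B2.16c 7.56 and SPAC750.02c 5.72 RPKM in the 1 h library, against 0.286, 0.167 and 0.341 in that of 0 h. For SPBC1348.05 these are 253 reads at 1 h (222.8 to 286.2, exact Poisson 95%) against 8 at 0 h (3.45 to 15.8). All 4 were called higher as deposited, and SPAC750.02c alone of them was not called after rescaling. At most 2.8% of their windows are unique.

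A pair of uncharacterized genes, SPAC977.18 on chromosome I and SPBPB2B2.18 on chromosome II, was also highest at 1 h and was singled out after its values were seen. SPAC977.18 read 0.517 RPKM in mitosis, 1.04 at 0 h and then 15.9, 6.21, 1.4, 0.792, 0.291, 0.268, 0.518 and 0.364 from 1 h to 8 h. SPBPB2B2.18 read 0.522 RPKM in mitosis, 0.842 at 0 h and then 15.8, 4.13, 1.07, 0.233, 0.235, 0, 0.418 and 0.824 from 1 h to 8 h. Both were highest at 1 h and second highest at 2 h, with changes of 3.05 and 3.19 at 1 h. Their proteins are 93.9% identical over 98 aligned residues, and 17.4% and 0.0% of their windows are unique. The values are therefore best read as those of the pair.

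Of the 10 neighbours listed under a symbol, dak2, which encodes dihydroxyacetone kinase, was the one called higher at 1 h. It read 31.6 RPKM in mitosis, 150.9 at 0 h and then 737.9, 211.1, 285.3, 188.0, 79.8, 32.0, 34.0 and 49.1 from 1 h to 8 h. The hexose transporter gene ght7 read 0.93 RPKM in mitosis, 79.2 at 0 h and then 276.7, 24.1, 14.9, 25.2, 25.6, 12.5, 10.9 and 12.4 from 1 h to 8 h, a change of 5.38 at 0 h against mitosis and of 1.79 at 1 h against 0 h. Both had their highest level at 1 h. Both were called lower at 6 h than at 0 h as deposited, with changes of -2.20 for dak2 and -2.57 for ght7, and neither was after rescaling. The galactose genes gal1, gal7 and gal10 reached 3.35, 4.41 and 1.16 RPKM in the 1 h library, against 0.723, 0.435 and 0.137 in that of 0 h, below the 5 RPKM needed for a call.

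At 2 h, 1 of 76 members was called higher than at 0 h (1.32%), where 1.12% of all genes were, and 1 after rescaling, where 1.78% were. It was SPBPB2B2.08, an uncharacterized gene of unique sequence, which read 0.0668 RPKM in mitosis, 0.337 at 0 h and then 0.89, 196.5, 7.18, 1.27, 1.21, 0.646, 1.0 and 2.18 from 1 h to 8 h. Its level in that library was 7.21 above 0 h on the log2 scale, the largest change of any member in any comparison made, and it was 7.18 RPKM at 3 h. SPBPB2B2.06c, a phosphoprotein phosphatase gene in the same cluster singled out after its values were seen, was also highest at 2 h, with 14.5 RPKM against 4.44 at 0 h, a change of 1.51 that was not called. At 2 h, 4 of 76 were called lower (5.26%), where 1.80% of all genes were, and 2 after rescaling, where 1.32% were. These 2 were SPAC977.13c and SPBPB2B2.01, and the calls lost were SPAC186.03 and the pseudogene SPBCPT2R1.07c.

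**Figure D5:**
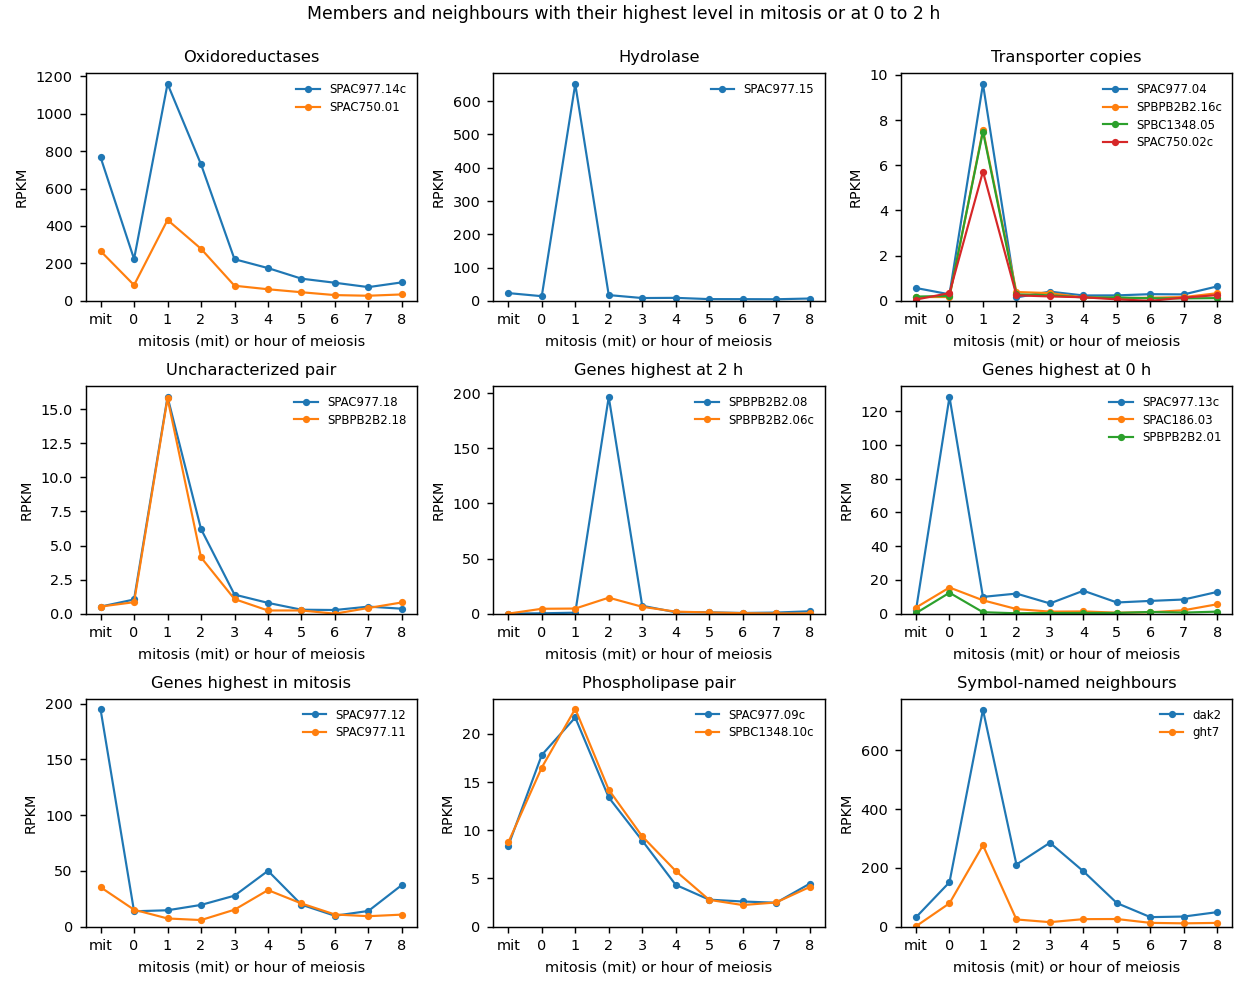
RPKM against stage for members and 2 symbol-listed neighbours with their highest level in mitosis or at 0 h to 2 h, each panel on its own linear axis that starts at 0. SPAC977.15 (651.8 RPKM at 1 h), the 4 transporter copies (5.72 to 9.59 RPKM at 1 h) and SPBPB2B2.08 (196.5 RPKM at 2 h) are high in 1 library, while the phospholipase pair overlaps along the whole course.

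Between the start of meiosis and growing cells the clusters held few calls as deposited. At 0 h, 2 of 76 members were called higher than in mitosis (2.63%), where 8.90% of all genes were, and 1 was called lower (1.32%), where 3.47% were. After rescaling 2 were higher and 4 lower, where 5.66% and 5.64% of all genes were. Members that never reached 5 RPKM, 37 of 76 against 139 of 5157 genes, could not be called as deposited, which lowers the members' shares. Of those that reached it, 2 of 39 members were higher and 1 lower, where 459 and 179 of 5018 genes were. After rescaling, 4 of these 39 were lower, where at most 291 of the 5018 were, so the members' share was then the larger. The pseudogene SPAC977.13c, of unique sequence, read 2.15 RPKM in mitosis, 128.4 at 0 h and then 9.94, 11.9, 6.06, 13.6, 6.63, 7.56, 8.39 and 12.9 from 1 h to 8 h. It was high at 0 h alone, 5.36 above mitosis on the log2 scale, and at 1 h it was called lower than at 0 h, with a change of -3.56. SPBPB2B2.01, an amino acid permease gene, read 0.332 RPKM in mitosis, 12.4 at 0 h and then 0.859, 0.236, 0.379, 0.419, 0.449, 1.01, 0.642 and 1.2 from 1 h to 8 h. It too was high at 0 h alone, with a change of 3.33 against mitosis and of -2.85 at 1 h against 0 h. These were the 2 members called lower at 1 h (2.63%), where 1.14% of all genes were, and again after rescaling, where 0.970% were.

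The member called lower at 0 h than in mitosis was SPAC977.12, which encodes L-asparaginase, the enzyme that releases ammonia from asparagine. It read 194.8 RPKM in mitosis, 13.7 at 0 h and then 14.6, 19.4, 27.7, 50, 19.6, 9.68, 14.0 and 37.3 from 1 h to 8 h. Mitosis was the highest library, and a smaller maximum followed at 4 h. Its protein is 99.7% identical to that of SPBPB8B6.05c, outside the members, and 26.7% of its windows are unique. The other L-asparaginase member, SPAC186.03, read 3.62 RPKM in mitosis, 15.5 at 0 h and then 7.92, 2.74, 1.21, 1.33, 0.595, 0.826, 2.04 and 5.59 from 1 h to 8 h. Its highest library was 0 h, and its protein is 70.2% identical to that of SPAC977.12, so these relatives did not share a course. After rescaling, SPAC977.14c, SPAC750.01 and SPAC750.07c were also called lower at 0 h than in mitosis.

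Several pseudogenes and cell-surface genes near the telomeres had their highest level in growing cells. The pseudogene SPAC212.09c read 12.1 RPKM in mitosis, 4.29 at 0 h and then 0.517, 0.342, 1.87, 2.44, 1.45, 0.805, 1.43 and 1.67 from 1 h to 8 h. The pseudogene SPBCPT2R1.07c on chromosome II read 16.8 RPKM in mitosis, 5.7 at 0 h and then 0.82, 0.486, 2.73, 3.52, 1.86, 1.69, 1.62 and 2.11 from 1 h to 8 h. Both were highest in mitosis, lowest at 2 h and higher again at 3 h and 4 h. Their changes at 0 h against mitosis, -1.31 and -1.41, were not called. Only 2.7% of the 50-base windows of each are unique, so the place their reads came from is not known. The 3 relatives SPAC212.08c, SPAC212.12 and SPAC750.07c, of which SPAC212.08c and SPAC212.12 are annotated as GPI-anchored cell-surface proteins, read at most 2.09 RPKM in the meiotic libraries, against 5.45 to 6.87 in mitosis. Of their windows 48.4%, 0.0% and 0.0% are unique, in that order. SPAC750.08c, 92.1% identical to the NAD-dependent malic enzyme gene mae2 over its 228 residues and without unique windows, read 3.54 RPKM at 0 h against 9.41 in mitosis.

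The members' maxima were also counted by stage and by cluster. Over the 39 members that reached 5 RPKM, 10 were highest in mitosis (25.6%), 3 in the 0 h library, 12 in that of 1 h, 2 in that of 2 h and 12 in that of 8 h, with none from 3 h to 7 h. Of the 5018 genes of the table that reached 5 RPKM, 17.3% were highest in mitosis, 17.1% at 1 h and 9.07% at 8 h. After rescaling, 8 of the 39 members were highest at 7 h and 4 at 8 h, with the other counts as before, and the shares of all genes were 24.3% for mitosis, 10.5% for 1 h, 5.78% for 7 h and 11.7% for 8 h. The members' share in mitosis was then close to that of all genes. As deposited, SPAC977, the inner of the clusters on its arm, had 10 of its 15 members reach 5 RPKM, 6 of them highest at 1 h. SPAC212, the cluster next to that telomere, had 5 of 12 reach it, 3 highest in mitosis and 2, both of the late family, at 8 h. SPBPB2B2 had 8 of 12 reach it, with maxima in mitosis and in the libraries of 0 h, 1 h, 2 h and 8 h. SPBC1348 had 5 of 13, SPBCPT2R1 4 of 9, SPAC750 5 of 8 and SPAC186 2 of 7.

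Genes of telomere and subtelomere silencing were read as a list of 24, among them taz1, rap1 and pot1 of the telomere complex, clr4, swi6 and the deacetylase gene clr3. All 24 reached 5 RPKM. None was called at 0 h against mitosis or at 1 h, 2 h or 8 h against 0 h, and 2 were called lower at 6 h (8.33%, where 10.3% of all genes were), rap1 with 6.01 RPKM against 44.3 at 0 h and clr2 with 4.56 against 21.7, neither of them after rescaling. The list's median change was -1.09 at 6 h (-0.35 rescaled), where that of all genes was -0.69 (0.00 rescaled).

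Known factor words were counted in the same 300-base windows of 75 members and 5122 genes, on both strands. TGACGT, a word of the stress factor Atf1, was in 9.33% of member windows and 5.92% of all windows. SPAC186.02c, SPAC977.13c and SPAC977.14c were among the 7 members holding it. The other holders, SPAC186.06, SPAC186.07c, SPAC212.02 and SPBCPT2R1.02, never exceeded 1.72 RPKM. The forkhead words GTAAACA and GTAAATA were in 1.33% and 4.00% of member windows, against 16.4% and 16.1% of all. TTCTTTG, a word of the meiosis factor Ste11, was in 4.00% against 9.98%, held by SPAC977.11, SPBC1348.08c and SPBPB2B2.18. GATAAG, of GATA factors, was in 5.33% against 11.5%, held by SPAC186.03, SPAC186.06, SPAC212.12 and SPAC977.12. No window of the late family held any of these words. Copies share windows, so members are not separate draws, and a word in a window is not a bound site. The windows are placed by the annotated gene start, which in the sequences shown above is the start codon itself. Where an untranslated leader is annotated, the window lies farther upstream of the start codon. Member windows and all windows may therefore cover unlike regions, which was not checked.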

How the data were processed

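Total RNA was sequenced in 10 stranded libraries, per the labels' protocols, and the other 134 of the series' 144 samples were not analysed here. The authors deposited RPKM values per gene and library, per the file headers. The columns that the authors deposited under the name TPM are a score of unknown scale, since their sums differ between libraries, and were not used. Over all assays, the submitters' processing notes list STAR 2.7.3a and Bowtie 1.2.2, cutadapt 1.18, SAMtools 1.9, bcl2fastq 1.17, bedtools 2.26.0 and 2.27.1, with ASM294v2 and mm10 as builds. Not given in the sources used here are the counting tool, gene lengths, use of strand and treatment of multi-mapping reads, so values of copies, overlapping genes and antisense genes are uncertain.

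Members and gene lists were chosen with earlier results of these data known. Of the members, 74 matched RefSeq (ASM294v3) by systematic ID and 2 by symbol, and 27 of the 5157 genes did not match. Depth was estimated from the steps of whole reads that low genes show once RPKM is multiplied by exonic length. The scale of all changes, log2(RPKM + 1), makes those of low genes look smaller. The 4-fold size rule is no test. Both it and the depth estimate were run on simulated data with counting error only, with changes set in genes of 100 RPKM or more at 0 h. Changes in lower genes and differences between cultures were not simulated, so the simulation does not show how reliable most calls here are. Named genes are tlh1, tlh2, the 3 members of highest mean in each cluster, up to 6 members with the largest call in each direction of each planned comparison, and groups of near-identical proteins (90% identity over 80% of length or more), 29 by the first parts of the rule. The comparison of 1 h with 0 h, the genes named for it and any others beyond that rule were chosen after seeing the data. Families were built with BLAST 2.17.0 and networkx 3.6.1. Alternatives were pseudocounts of 0.1 and 5, rescaling, no minimum level, a minimum of 20 RPKM, and members without near-identical copies. The last are the members with no near-identical protein by the rule above. They include the 10 pseudogenes, which have no protein to compare, and the pair SPAC977.18 and SPBPB2B2.18. SPAC212.04c and SPBPB2B2.07c of the late family are also among them, so some still share sequence. Scripts ran in Python 3.11.15 (Biopython 1.88, matplotlib 3.10.9, NumPy 2.4.6, pandas 2.3.3, SciPy 1.17.1).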

Additional observations from a re-analysis of the deposited data

How the results depend on the processing

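With 1 library per stage nothing could be left out within a group, and a difference between stages cannot be told apart from one between cultures or libraries. No paired analysis was possible because no stage had a second library. The size rule and its pseudocount decide the calls of low genes. With a pseudocount of 5, 3 members were higher at 1 h and 1 at 0 h against mitosis, and 1 was lower in each comparison with 0 h. With a minimum of 20 RPKM, 3 were higher at 1 h and 1 at 0 h against mitosis, and 1 was lower at 1 h, 2 h and 8 h each, and 2 at 6 h. With a pseudocount of 0.1, 2 were lower at 0 h against mitosis and 2 higher at 2 h, and the members' median change was -0.39 at 2 h and -0.67 at 6 h, against -0.04 at 6 h with a pseudocount of 5. Rescaling gave 4 lower at 0 h against mitosis, 2 lower at 2 h, 3 lower at 6 h and a median of -0.05 at 6 h. Among the 31 members without near-identical copies, 0 were lower at 0 h against mitosis, 3 were higher at 1 h, 2 higher and 3 lower at 6 h, with a median of -0.54, and 3 were higher at 8 h; fewer genes enter these counts by construction. Elsewhere the cause was not tested. Of the other alternatives run, 38 counts stayed within 1.5 times the reported count and 15 medians within 0.1. Under the alternatives that kept all members, 9 or 10 members were higher at 6 h, and 10 or 11 at 8 h. Copies and depth limit the rest: members without unique windows cannot be told from their copies, and members under 1 RPKM rest on few reads.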
